A study of Mus musculus with 4 samples.

Results

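Aminoacyl-tRNA synthetases are the enzymes that load each tRNA with its amino acid, and their genes were followed here in RNA recovered with the nuclear protein SAFB from mouse hepatocytes. Members were chosen by symbol: 1 letter followed by ars, with or without a final 2, together with Farsa, Farsb, Eprs, Aimp1 and Aimp2. No measured value entered the rule, though members were chosen with earlier results of these data known. The rule found 39 genes among the 52189 distinct identifiers of the deposited table. Of these, 20 encode cytosolic synthetases, 17 have symbols ending in 2 and encode mitochondrial synthetases, and Aimp1 and Aimp2 encode scaffold proteins without synthetase activity. All 39 were among the 16647 genes tested, which were those with at least 1 TPM (a transcript's share of its library, corrected for transcript length) in at least 2 of the 4 libraries.

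The study used RNA immunoprecipitation and sequencing to find RNAs associated with SAFB (scaffold attachment factor B) in AML12, a hepatocyte line derived from mice carrying a transforming growth factor alpha transgene. Every dish was grown with 10% serum, an insulin, transferrin and selenium supplement and 0.1 µM dexamethasone, and was crosslinked with ultraviolet light before nuclei were isolated, lysed and sonicated. The lysate was then divided between control IgG (IgG RIP, 2 libraries) and an antibody to SAFB (SAFB RIP, 2 libraries), so the groups share genotype, medium and treatment and differ by antibody alone. No label states whether the replicates were separate cultures, so p-values measure only the spread between these libraries, which may be technical. An input fraction was not analysed here, and the values therefore compare what each antibody recovered, without the nuclear abundance of each RNA. A higher TPM can reflect more of that RNA in a precipitate or less of others, and a change in fewer cells cannot be told apart from a smaller change in every cell.

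Synthetases fall into class I and class II, families with unrelated catalytic folds. Cytosolic and mitochondrial translation use separate enzymes for most amino acids, all of them encoded in the nucleus, while Gars and Kars each encode both forms. In animals several cytosolic synthetases are held with scaffold proteins in the multisynthetase complex, and others act outside it. SAFB is known as a nuclear matrix protein that binds RNA, with a reported preference for purine-rich stretches.

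Cell identity was checked against marker genes. All 12 hepatocyte markers were above 0 in every library, with summed levels of 7476 to 7637 TPM in the IgG RIP and 6718 to 6982 TPM in the SAFB RIP. Trf, Ttr, Krt8 and Krt18 were the highest of them, while Tat did not exceed 3.78 TPM and Fgb 7.59 TPM. Summed levels did not exceed 2.75 TPM for 5 macrophage markers (Adgre1, Clec4f and Lyz2 listed at 0), 0.771 TPM for 4 endothelial markers or 1.80 TPM for 5 stellate and fibroblast markers. Cholangiocyte markers (5 of 5 in the table) summed to 910 to 1265 TPM in the IgG RIP and 873 to 904 TPM in the SAFB RIP. Krt7 and Krt19 were the highest of these, and Sox9 was at 54.0 and 57.8 TPM with IgG and at 38.5 and 37.05 TPM with SAFB. Cftr did not exceed 3.56 TPM and Epcam 0.364 TPM. The part of the cholangiocyte markers in the results was not tested. Over all genes tested the median log2 fold change was 0.46, although TPM sum to nearly the same total in every library. Identifiers above 0 numbered 16031 and 17278 in the IgG libraries and 22389 and 21006 in the SAFB libraries. The part of this difference in the fold changes was not tested. TPM keep no read depth, so counting error could not be given.

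The coding sequences of the members at either end of the response show the purine-rich letters compared below. A search of the transcript strand alone, overlapping matches counted separately, looked for the hexamer GAAGAA, for the hexamer AGAAGA and for the hexamer AAGAAG. For each gene the 90 bases of a single coding exon with the most matches were taken from GENCODE M21 (assembly GRCm38, which is mm10). Of 11910 tested genes with such an exon, 81.9% had a stretch with at least 1 match, and the median of the most matches was 2.0. The first sequences are from Tars and Rars, which are among the 3 members with the largest fold changes, followed by Aimp1 and Sars, added after their values were seen because they hold the most hexamers per kilobase. All read 5′ to 3′ on the transcript strand, and capitals mark the hexamers.
Tars, chr15:11392787-11392876, minus strand, exon 5: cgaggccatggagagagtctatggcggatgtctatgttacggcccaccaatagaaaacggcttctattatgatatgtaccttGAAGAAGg
Rars, chr11:35833193-35833282, minus strand, exon 2: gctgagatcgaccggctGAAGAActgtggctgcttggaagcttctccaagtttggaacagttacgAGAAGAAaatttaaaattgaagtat
Aimp1, chr3:132660639-132660728, minus strand, exon 7: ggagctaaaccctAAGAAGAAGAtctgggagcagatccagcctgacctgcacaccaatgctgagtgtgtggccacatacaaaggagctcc
Sars, chr3:108426864-108426953, minus strand, exon 12: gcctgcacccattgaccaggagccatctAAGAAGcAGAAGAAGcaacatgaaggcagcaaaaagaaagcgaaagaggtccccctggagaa

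The stretch from Sars held 4 hexamers, and that from Aimp1 held 5. A stretch with at least 4 was found in 24.6% of genes and one with at least 5 in 15.1%. The stretch from Rars held 3 (at least as many in 40.6% of genes), and that from Tars held 2 (61.1%). The next sequences are from Vars, Qars and Vars2, the 3 members with the lowest fold changes.
Vars, chr17:35011220-35011309, plus strand, exon 11: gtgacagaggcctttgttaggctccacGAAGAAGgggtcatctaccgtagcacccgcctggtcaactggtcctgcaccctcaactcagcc
Qars, chr9:108512488-108512577, plus strand, exon 11: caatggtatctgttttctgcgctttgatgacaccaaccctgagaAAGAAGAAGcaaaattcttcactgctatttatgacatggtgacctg
Vars2, chr17:35667075-35667164, minus strand, exon 1: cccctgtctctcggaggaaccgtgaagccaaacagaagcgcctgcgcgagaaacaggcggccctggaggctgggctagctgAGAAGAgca

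Qars held 4 hexamers, as many as Sars, while Vars held 2 and Vars2 held 1. A match in these windows is a description of letters and not of a binding site.

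RNA of synthetase genes was divided between recovery above and below the IgG control. In the fit of all genes (limma on log2(TPM + 1), Benjamini-Hochberg adjusted p at most 0.05), 11 of 39 members were higher in the SAFB RIP and 6 were lower, while 22 did not pass. Over all genes tested, 29.8% were higher and 8.30% were lower by the same rule. The share of members that were higher (28.2%) was thus near the background, and the share that were lower (15.4%) was above it, without a test of that difference. The median log2 fold change of the members was 0.20, with a range of -1.08 to 1.71, and 13 of 39 lay above the median of all genes. Without regard to the test, the libraries of the groups did not overlap in 19 members with higher SAFB values, against 52.3% of all genes, and in 12 with lower values, against 21.4%.

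The balance of directions depended on how libraries were scaled to each other. Under median centring, 6 members were higher and 11 were lower, against 16.4% and 17.6% of all genes. Quantile normalization gave 8 and 8 (16.6% and 17.9% of all genes), and rescaling of protein-coding genes alone gave 8 and 9 (21.5% and 19.2%). All 6 lower members stayed lower under these 3 scalings. With the replicate number as a block, 12 members were higher and 5 were lower, against 28.8% and 7.59% of all genes.

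All the synthetase genes called higher were cytosolic, while genes called lower came from both sets. Of 20 cytosolic genes, 10 were higher, 4 were lower and 6 did not pass, and their median log2 fold change was 0.43. The shares over all genes tested were 29.8% higher and 8.30% lower. Of 17 mitochondrial genes, 0 were higher by limma's adjusted p (3 at an unadjusted p under 0.05), 2 were lower and 15 did not pass, with a median of -0.06. The median of all genes was exceeded by 10 cytosolic and 2 mitochondrial genes. Mitochondrial genes were also less abundant, with median levels of 30.1 and 21.4 TPM with IgG against 91.3 and 83.8 TPM for cytosolic genes. The medians over all genes tested were 15.2 and 16.1 TPM with IgG, below those of both sets. Rars2 (1.05 ± 0.32) and Mars2 (1.01 ± 0.31) had larger fold changes than Cars (0.60 ± 0.09) but wider standard errors, and only Cars passed. The part of abundance in the calls was not tested. Median centring subtracts a constant from each library, which moved both medians down together, to -0.03 and -0.52, so the cytosolic median changed sign. Summed over genes, cytosolic synthetases took 2147.6 and 1987.8 TPM in the IgG libraries and 2733.9 and 2718.6 TPM in the SAFB libraries. The mitochondrial sums were 732.1 and 680.8 TPM with IgG and 618.1 and 638.7 TPM with SAFB. The cytosolic sum was higher in both SAFB libraries than in either IgG library, and the mitochondrial sum was lower, with no overlap in either case. Single genes were higher without overlap in 52.3% and lower in 21.4% of all genes tested. A sum is weighted toward abundant genes such as Eprs, at 123.6 and 136.3 TPM with IgG and 399.7 and 386.3 TPM with SAFB. The rise of the cytosolic sum is therefore not one of every gene, as 4 were called lower.

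**Figure D1:**
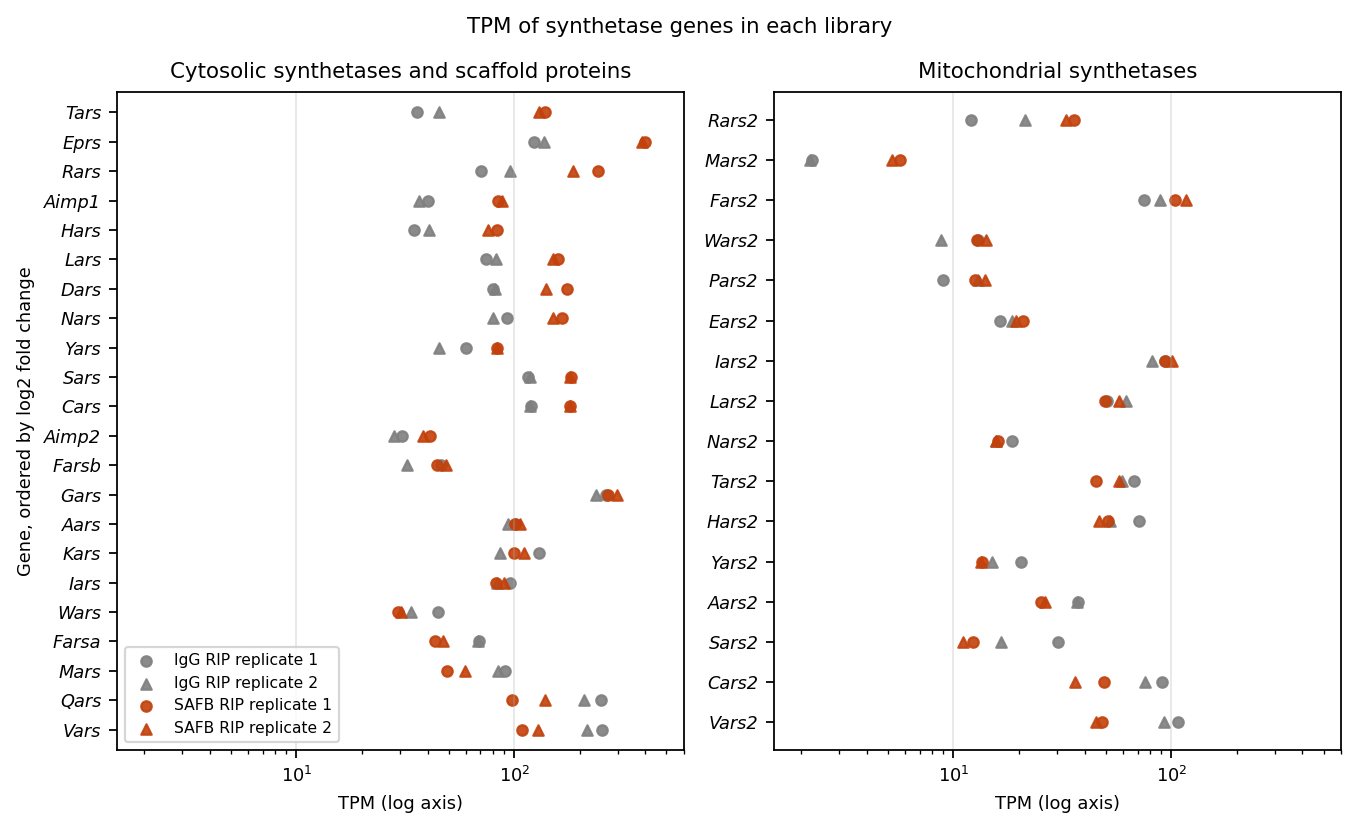
TPM of 38 members in each of the 4 libraries on a log axis, cytosolic and scaffold genes on the left and mitochondrial genes on the right, ordered by log2 fold change. Grey symbols are IgG RIP and orange symbols are SAFB RIP, with circles for replicate 1 and triangles for replicate 2. Orange symbols lie to the right of grey ones in the upper rows (Tars, Eprs) and to the left in the lowest rows (Vars, Vars2).

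**Figure D2:**
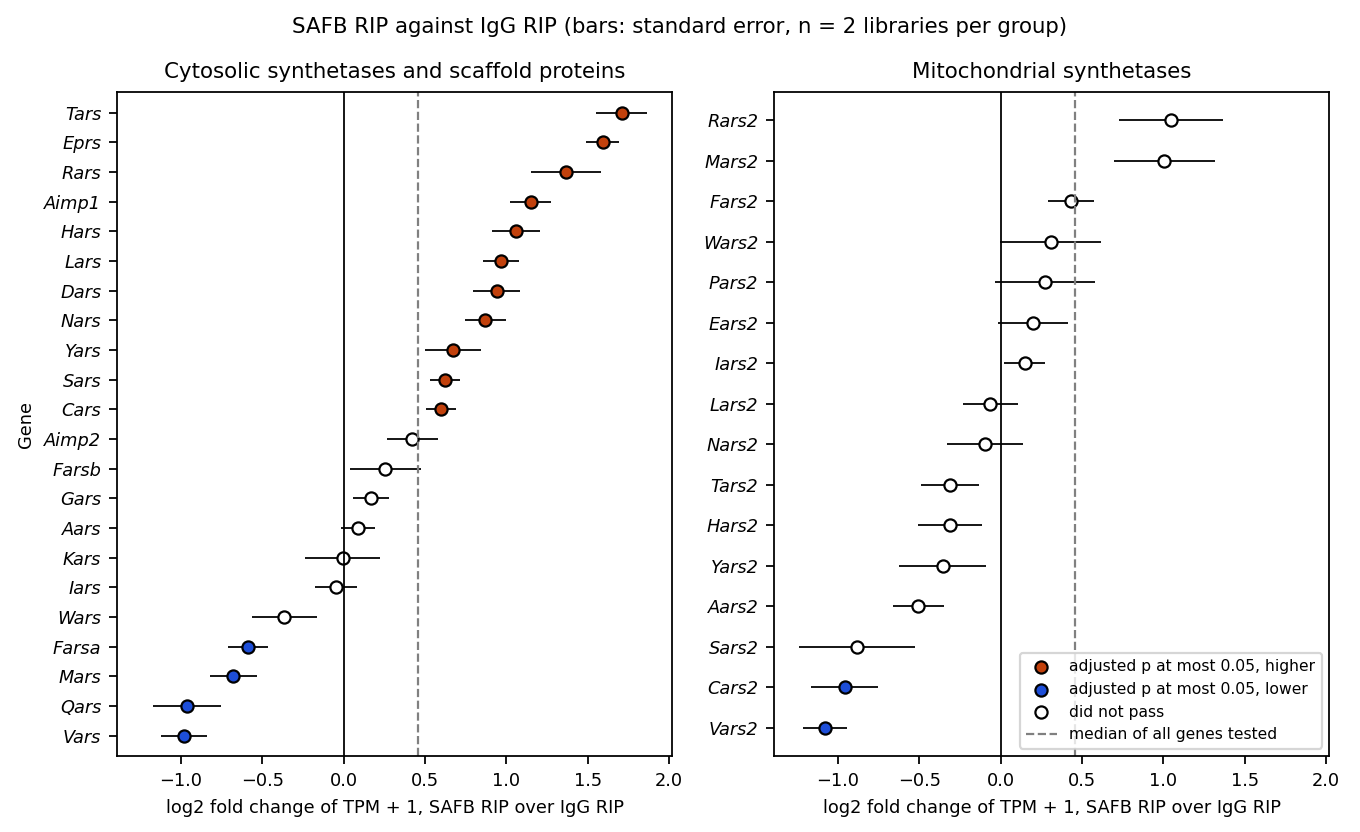
Log2 fold change of TPM + 1, SAFB RIP over IgG RIP, for 38 members, with bars for the standard error (2 libraries per group). Orange points passed as higher and blue points as lower, open points did not pass, and the dashed line is the median of all genes tested (0.46). The 10 cytosolic genes and Aimp1 that passed as higher are all in the left panel, and the right panel holds 2 lower genes, Cars2 and Vars2.

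The multisynthetase complex showed both directions. Of its 11 genes in the table (8 cytosolic synthetases, Aimp1, Aimp2 and Eef1e1), 5 were higher, 2 were lower and 4 did not pass. Among all genes tested, 29.8% were higher and 8.30% were lower. The median log2 fold change of the complex was 0.42. Eprs (chr1:185363044-185428360, plus strand) encodes the fused glutamyl and prolyl enzyme. It was at 123.6 and 136.3 TPM in the IgG libraries and at 399.7 and 386.3 TPM in the SAFB libraries, the highest SAFB level of any member. The groups lay far apart, with a log2 fold change of 1.59 ± 0.10 (SE, limma adjusted p = 0.00410). Rars (chr11:35808381-35834506, minus strand), the arginyl enzyme, was at 70.2 and 95.5 TPM with IgG and at 243.7 and 185.9 TPM with SAFB. Its replicates were more spread within each group than those of Eprs but did not overlap, and the log2 fold change was 1.37 ± 0.22 (limma adjusted p = 0.0139).

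The leucyl gene Lars was at 74.4 and 82.5 TPM with IgG and at 158.4 and 150.0 TPM with SAFB, a log2 fold change of 0.97 ± 0.11 (limma adjusted p = 0.00788). The aspartyl gene Dars (chr1:128363707-128417368, minus strand) was at 80.1 and 81.9 TPM with IgG and at 175.1 and 139.9 TPM with SAFB. In both genes each SAFB library exceeded each IgG library, and for Dars the log2 fold change was 0.94 ± 0.14 (limma adjusted p = 0.0130). The scaffold gene Aimp1 (chr3:132660499-132684370, minus strand), whose product binds tRNA and joins Rars to the complex, was at 40.0 and 36.4 TPM with IgG and at 83.9 and 87.8 TPM with SAFB. Both SAFB values stood clear of both IgG values, and the log2 fold change was 1.15 ± 0.13 (limma adjusted p = 0.00759). The other scaffold gene, Aimp2, was at 30.5 and 28.2 TPM with IgG and at 41.0 and 38.2 TPM with SAFB, which did not pass (0.42 ± 0.16, limma adjusted p = 0.0978). Of the exon bases of Aimp2, 29.4% lie opposite exons of Eif2ak1, and since the use of strand in counting is unknown its value is uncertain.

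Other enzymes of the same complex went the opposite way. The glutaminyl gene Qars (chr9:108507706-108515941, plus strand) was at 249.2 and 208.4 TPM with IgG and at 97.5 and 138.7 TPM with SAFB. The groups did not overlap, with a log2 fold change of -0.96 ± 0.21 (limma adjusted p = 0.0273). The methionyl gene Mars (chr10:127296221-127311786, minus strand) was at 90.2 and 83.9 TPM with IgG and at 49.2 and 59.4 TPM with SAFB, again without overlap (-0.68 ± 0.15, limma adjusted p = 0.0272). Iars, the isoleucyl gene, had overlapping groups, at 95.3 and 83.6 TPM with IgG and 82.7 and 90.2 TPM with SAFB. Eef1e1, which encodes a small subunit that joins Mars to the complex, had overlapping groups too, with a log2 fold change of 0.13 ± 0.22. The proportions among genes of the complex thus differed between the precipitates. Eprs and Qars had the highest and lowest log2 fold changes of the complex, so their ratio shows its extremes alone. The ratio of Eprs to Qars TPM was below 1 in both IgG libraries and above 1 in both SAFB libraries.

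Cytosolic synthetases outside the complex showed both directions too. Outside it 6 of 12 genes were higher and 2 were lower (median log2 fold change 0.43). Within it 4 of 8 were higher and 2 were lower (median 0.47), and of all genes tested 29.8% were higher and 8.30% lower. Tars (chr15:11382301-11399665, minus strand), the threonyl enzyme, had the largest fold change of all members. It was at 35.9 and 45.4 TPM with IgG and at 138.3 and 130.3 TPM with SAFB, a log2 fold change of 1.71 ± 0.16 (limma adjusted p = 0.00579). Hars, the histidyl gene, was at 34.8 and 40.7 TPM with IgG and at 83.0 and 76.0 TPM with SAFB, a log2 fold change of 1.06 ± 0.15 (limma adjusted p = 0.0108). Nars, the asparaginyl gene, was at 92.3 and 80.1 TPM with IgG and at 166.1 and 150.5 TPM with SAFB. None of these 3 genes had groups that overlapped, and the log2 fold change of Nars was 0.87 ± 0.13 (limma adjusted p = 0.0118).

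Smaller differences were found for the tyrosyl, seryl and cysteinyl genes. Yars (chr4:129189760-129219607, plus strand) was at 59.8 and 45.2 TPM with IgG and at 83.7 and 83.1 TPM with SAFB (0.67 ± 0.17, limma adjusted p = 0.0409). Sars (chr3:108424865-108445209, minus strand) was at 115.6 and 118.2 TPM with IgG and at 181.4 and 180.4 TPM with SAFB (0.63 ± 0.09, limma adjusted p = 0.0122). Cars (chr7:143557230-143600090, minus strand) was at 119.2 and 118.4 TPM with IgG and at 180.2 and 180.6 TPM with SAFB (0.60 ± 0.09, limma adjusted p = 0.0130). Replicates of Sars and Cars were nearly equal within each group, so their small differences stood clear of that spread. These 3 genes were not called higher when libraries were rescaled by any of 3 methods (median centring, quantile normalization, protein-coding genes alone). Without SAFB replicate 1 the log2 fold changes of Sars and Cars were 0.62 and 0.60, and without SAFB replicate 2 they were 0.63 and 0.60. Such fits take their spread from the IgG libraries alone, so they cannot decide whether these genes pass. Dars and Nars were lost under median centring alone among the scalings.

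Vars and Farsa were the lower genes of this set. Vars (chr17:35000987-35016322, plus strand), the valyl enzyme, was at 253.2 and 215.4 TPM with IgG and at 108.9 and 128.0 TPM with SAFB, a log2 fold change of -0.98 ± 0.14 (limma adjusted p = 0.0118). Farsa (chr8:84856989-84869257, plus strand) encodes the alpha subunit of the phenylalanyl enzyme and was at 68.7 and 68.1 TPM with IgG and at 43.5 and 47.0 TPM with SAFB (-0.59 ± 0.12, limma adjusted p = 0.0262). In neither gene did the groups overlap. Farsb, which encodes the partner beta subunit, had overlapping groups, at 46.2 and 32.3 TPM with IgG and 44.2 and 48.5 TPM with SAFB (0.26 ± 0.22). Without SAFB replicate 1 the log2 fold changes of Farsa and Mars were -0.53 and -0.54, and without SAFB replicate 2 they were -0.64 and -0.81. With the spread of the IgG libraries alone, such fits cannot decide the calls of these genes. Aars and Wars, the alanyl and tryptophanyl genes, did not pass, with log2 fold changes of 0.09 ± 0.11 and -0.37 ± 0.20, and Aars shares 14.3% of its exon bases with Exosc6 on the same strand.

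The genes that serve both compartments did not pass. Gars, the glycyl gene, was the most abundant member in the IgG libraries at 263.1 and 238.5 TPM, and it was at 268.1 and 296.0 TPM with SAFB. Its SAFB values lay just above its IgG values, and the log2 fold change was 0.17 ± 0.11 (limma adjusted p = 0.280). Kars, the lysyl gene, was at 130.6 and 85.7 TPM with IgG and at 99.8 and 111.3 TPM with SAFB. Both SAFB values fell between the IgG values, and the log2 fold change was -0.01 ± 0.23. The pseudogene Kars-ps1 was listed at 0 in every library.

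Among mitochondrial synthetases, Vars2 and Cars2 passed the test, both lower with SAFB. Vars2 (chr17:35655634-35667592, minus strand), the valyl enzyme, was at 107.0 and 92.9 TPM with IgG and at 48.1 and 45.2 TPM with SAFB. This was the lowest log2 fold change of the members, -1.08 ± 0.13 (limma adjusted p = 0.00868), and the groups did not overlap. Cars2 (chr8:11513977-11550783, minus strand), the cysteinyl enzyme, was at 90.5 and 75.9 TPM with IgG and at 49.3 and 36.0 TPM with SAFB (-0.96 ± 0.21, limma adjusted p = 0.0268). Its groups did not overlap either. The log2 fold change was -1.18 without SAFB replicate 1 and -0.74 without SAFB replicate 2, in fits that cannot decide the call. Of its exon bases, 5.83% lie opposite exons of Naxd, which reached 183 TPM.

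The largest positive values in this set were those of Rars2 and Mars2, and neither passed. Rars2, the arginyl gene, was at 12.0 and 21.4 TPM with IgG and at 35.6 and 33.0 TPM with SAFB. The IgG libraries differed from each other, and the log2 fold change of 1.05 ± 0.32 had a limma adjusted p of 0.0619. Mars2, the methionyl gene and the least abundant member, was at 2.23 and 2.19 TPM with IgG and at 5.68 and 5.22 TPM with SAFB (1.01 ± 0.31, limma adjusted p = 0.0640). Both genes had higher values in each SAFB library than in each IgG library. Fars2, the phenylalanyl gene, was at 75.0 and 89.0 TPM with IgG and at 104.2 and 117.3 TPM with SAFB (0.43 ± 0.14, limma adjusted p = 0.0721). Without IgG replicate 1 the log2 fold changes of Rars2, Mars2 and Fars2 were 0.66, 1.02 and 0.31. Without IgG replicate 2 they were 1.44, 0.995 and 0.55. Such fits take their spread from the SAFB libraries alone, so they cannot decide whether these genes pass. Over all genes tested the SAFB libraries differed by a median of 0.166 log2 units and the IgG libraries by 0.370.

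On the other side, 5 mitochondrial genes had lower values in both SAFB libraries without passing. Passed or not, 7 mitochondrial genes (41.2%) were lower without overlap and 5 (29.4%) were higher, against 21.4% and 52.3% of all genes. Aars2, the alanyl gene, was at 37.2 and 36.9 TPM with IgG and at 25.3 and 26.3 TPM with SAFB (-0.51 ± 0.16, limma adjusted p = 0.0646). Sars2, the seryl gene, was at 30.1 and 16.6 TPM with IgG and at 12.4 and 11.02 TPM with SAFB (-0.88 ± 0.36, limma adjusted p = 0.117). Spread between the IgG libraries was wide for Sars2 and narrow for Aars2. Hars2, Tars2 and Yars2 had log2 fold changes of -0.31, -0.31 and -0.36. Aars2 and Sars2 were called lower under each of the 3 scalings. Wars2, Pars2, Ears2, Iars2, Lars2 and Nars2 lay between -0.10 and 0.31, and of the exon bases of Iars2 22.9% lie opposite exons of Rab3gap2.

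Each pair of cytosolic and mitochondrial genes for the same amino acid gives a ratio within a library, which multiplying a library by a factor leaves unchanged apart from the added 1 TPM. Quantile normalization does change such ratios. Of 14 pairs, the ratio of the cytosolic to the mitochondrial gene was higher in both SAFB libraries than in either IgG library in 10. It was lower in 3 (Iars, Mars and Wars) and overlapping in 1 (Vars). Separation of this kind is common with 2 libraries per group. Among single genes tested, 52.3% were higher and 21.4% were lower without overlap, and no such share was computed for other pairs of genes. The cytosolic log2 fold change exceeded the mitochondrial one in 11 pairs, by a median of 0.79 over all 14. These are descriptions, and the difference between the sets was not tested.

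In 11 pairs the cytosolic gene was above its counterpart in every library. The order turned in the other 3 pairs, those of Tars, Hars and Iars. For threonine, the log2 ratio of Tars to Tars2 was -0.90 and -0.38 in the IgG libraries and 1.60 and 1.16 in the SAFB libraries. Tars2, at 67.7 and 59.2 TPM with IgG, exceeded Tars there, while with SAFB it was at 44.9 and 57.7 TPM and Tars was above it. For histidine, the log2 ratio of Hars to Hars2 was -1.01 and -0.35 with IgG and 0.68 and 0.69 with SAFB. Hars2 was at 71.2 and 52.1 TPM with IgG and at 51.3 and 46.7 TPM with SAFB. Hars and Hars2 are neighbours transcribed in opposite directions whose spans overlap by 198 bases, and 7.97% of the exon bases of Hars lie opposite exons of Hars2, so some reads could belong to either.

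The cysteine and serine pairs changed by similar amounts. The log2 ratio of Cars to Cars2 was 0.39 and 0.64 with IgG and 1.85 and 2.30 with SAFB, and that of Sars to Sars2 was 1.91 and 2.76 with IgG and 3.77 and 3.92 with SAFB. In both pairs the cytosolic gene was called higher, and Cars2 was called lower while Sars2 did not pass. The methionine pair moved furthest the other way. Its log2 ratio was 4.82 and 4.74 with IgG and 2.91 and 3.28 with SAFB. For valine the ratio overlapped between groups, at 1.23 and 1.21 with IgG and 1.16 and 1.48 with SAFB, with both genes lower. For isoleucine, Iars and Iars2 were nearly equal with IgG (0.02 and 0.03), and Iars2 was slightly above with SAFB (-0.18 and -0.16).

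**Figure D3:**
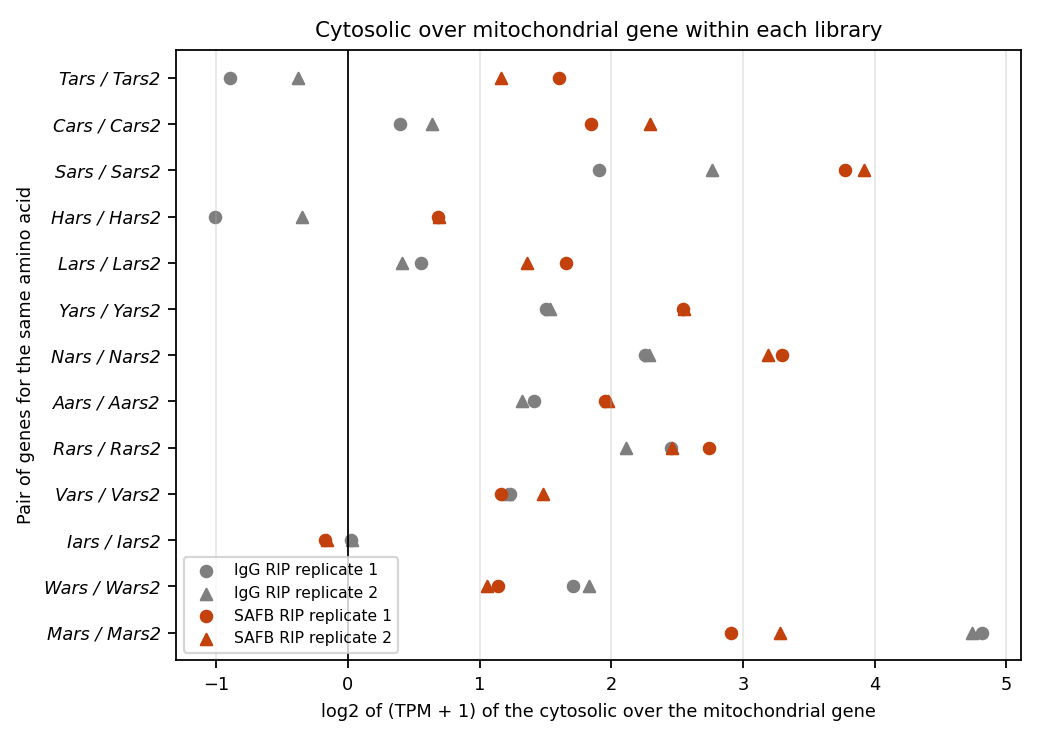
Log2 ratio of TPM + 1 of the cytosolic over the mitochondrial gene in each library, for 13 of the 14 amino acids with a gene for each compartment, ordered by the difference of their log2 fold changes. Grey symbols are IgG RIP, orange symbols SAFB RIP, circles replicate 1 and triangles replicate 2. In the top rows (Tars, Cars, Sars, Hars) the orange symbols lie to the right of the grey ones, and in the bottom row (Mars) to the left.

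By catalytic family, 4 of 9 cytosolic class I genes were higher and 3 were lower, and the median log2 fold change was -0.05. For cytosolic class II, 5 of 10 genes were higher and 1 was lower, and the median was 0.44. Eprs, which holds both kinds of domain, was counted in neither. The shares over all genes tested were 29.8% higher and 8.30% lower, and no class was tested against them. Among mitochondrial genes, class I had a median of 0.15, and 2 of its 9 genes were lower while 0 were higher by limma (2 at an unadjusted p under 0.05). Mitochondrial class II had 0 in either direction of 8 (1 at an unadjusted p under 0.05 in each), with a median of -0.20.

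Base composition differed along the same order. Each gene was represented by its GENCODE M21 transcript with the longest coding sequence, which 11934 tested genes had. Of those genes, 28.3% were higher and 10.2% were lower. The 11 members that were higher had a median transcript GC share of 47.2% and a median of 7.58 hexamers per kilobase of coding sequence. The 6 that were lower had medians of 56.2% and 2.52, and all 11934 genes had medians of 50.5% and 3.03. Each of the 11 higher members lay above the all-gene median of hexamers, from Dars at 3.33 to Aimp1 at 13.6 per kilobase. The same ordering was found over all genes, where the higher genes had medians of 46.8% and 4.57 and the lower genes 56.3% and 1.56.

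Of 21 members with more hexamers than the all-gene median, 11 (52.4%) were higher and 2 (9.52%, Qars and Vars) were lower, against 39.0% and 4.98% of all genes above that median. Of the other 18, 0 were higher by limma (3 at an unadjusted p under 0.05) and 4 (22.2%) were lower, against 17.6% and 15.4% of all genes at or under it. Split by GC share instead, 8 of 18 members below the all-gene median were higher (44.4%) and 0 were lower by limma (0 also at an unadjusted p under 0.05), near the 42.7% and 2.43% of all genes below it. Of 21 members at or above it, 3 (14.3%, Yars, Sars and Cars) were higher and 6 (28.6%) were lower, against 13.9% and 17.9% of all genes there. None of these shares was tested against its background. Yars, Sars and Cars, the higher members rich in GC, held 8.27, 9.95 and 8.42 hexamers per kilobase, of which the printed stretch of Sars is the densest part. Kars held 7.48 per kilobase without passing. A hexamer was present in the coding sequence of 37 of 39 members and of 86.1% of all genes, and Sars2 and Nars2 held none.

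Cytosolic genes had a median of 5.12 hexamers per kilobase of coding sequence and mitochondrial genes 2.31. Their median GC shares were 50.9% and 51.7% over the transcript, and 52.0% and 55.4% over the coding sequence. More hexamers than the all-gene median were found in 16 of 20 cytosolic and 4 of 17 mitochondrial genes. Across the 39 members, Spearman's rho of the log2 fold change was -0.62 with GC share and 0.51 with hexamers per kilobase, and over the 11934 genes it was -0.51 and 0.35. Genes are not independent replicates, all points share the same 4 libraries, and the 2 features are themselves related (rho -0.27 across members), so no p is given.

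**Figure D4:**
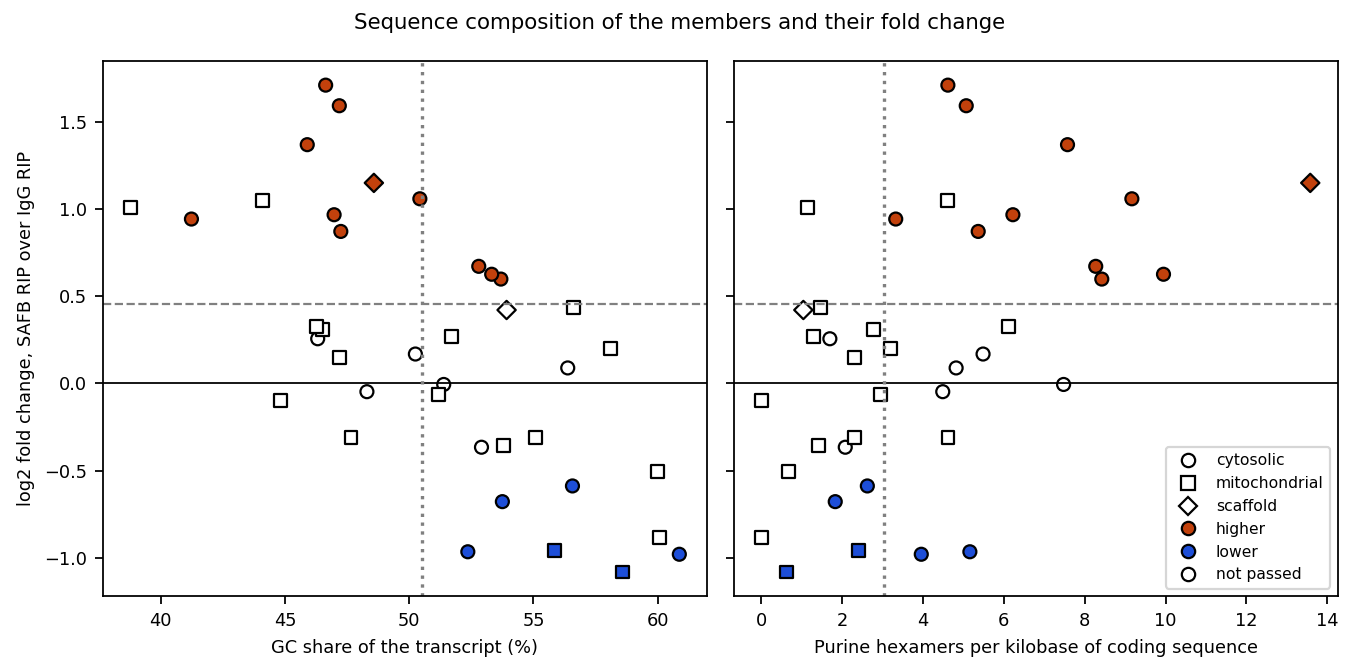
Log2 fold change of each member against the GC share of its transcript (left, percent) and against purine hexamers per kilobase of coding sequence (right). Circles are cytosolic, squares mitochondrial and diamonds scaffold genes, filled orange for higher, blue for lower and open for not passed. Dotted lines mark the all-gene medians of each feature (50.5% and 3.03) and the dashed line that of the log2 fold change. Orange symbols all lie to the right of the dotted line in the right panel.

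An alternative fit, added after the data were seen, removed the trend of log2 values with transcript GC share in each library. In it, 10 of the 11 higher members were still higher, while Dars was not (limma adjusted p = 0.0854). Of the 6 lower members only Qars was still lower (limma adjusted p = 0.0270), and Vars was at -0.14, Vars2 at -0.36 and Farsa at 0.00136. Aars, Aimp2, Ears2 and Fars2 became higher. The background in this fit was 30.4% higher and 5.84% lower.

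Genes that work beside the synthetases were taken as further lists. Among 9 tested relatives of the synthetases, 2 (22.2%) were higher and 0 were lower by limma (1 at an unadjusted p under 0.05). The shares over all genes tested were 29.8% and 8.30%, and the median log2 fold change of the relatives was 0.08. Sepsecs, which completes selenocysteine on its tRNA, was at 10.2 and 12.2 TPM with IgG and at 30.2 and 28.7 TPM with SAFB (1.33 ± 0.22, limma adjusted p = 0.0157). Tarsl2, a paralog of Tars, was at 16.0 and 23.4 TPM with IgG and at 35.9 and 41.4 TPM with SAFB (0.96 ± 0.25, limma adjusted p = 0.0419), a call lost under each of the 3 scalings. Both had non-overlapping groups.

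In mitochondria glutaminyl-tRNA is made from a glutamate-charged tRNA by an amidotransferase, and methionyl-tRNA for initiation is formylated. Of the 4 genes for these steps, 1 (25.0%) was higher and 0 were lower by limma, against 29.8% and 8.30% of all genes. Their median log2 fold change was 0.98. The higher gene was Qrsl1, the catalytic subunit of the amidotransferase. It was at 17.3 and 11.5 TPM with IgG and 41.1 and 41.2 TPM with SAFB (1.48 ± 0.26, limma adjusted p = 0.0166). The other 3 did not pass, and their values were 1.03 ± 0.38 for Gatb, 0.93 ± 0.37 for Mtfmt and -0.09 ± 0.30 for Gatc. Ears2, which supplies the glutamate-charged tRNA, was at 0.20 ± 0.22.

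Charged tRNAs are handed to the ribosome by elongation factors. Of 7 cytosolic factors tested, 1 (14.3%) was higher and 2 (28.6%) were lower, against 29.8% and 8.30% of all genes. Their median log2 fold change was -0.23. Eef2, the translocase, was at 1437 and 1281 TPM with IgG and at 705.0 and 729.6 TPM with SAFB (-0.92 ± 0.11, limma adjusted p = 0.00867). Eif5a, which helps ribosomes past stalling peptides, was at 235.0 and 216.7 TPM with IgG and at 107.6 and 108.3 TPM with SAFB (-1.06 ± 0.10, limma adjusted p = 0.00591). Both were lower in each SAFB library. Eef1b2, an exchange factor for the tRNA carrier, was higher (0.87 ± 0.18, limma adjusted p = 0.0255), a call lost under median centring and quantile normalization. Eef1a1, the tRNA carrier itself, was at 3869 and 3856 TPM with IgG and 4524 and 4499 TPM with SAFB and did not pass.

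Mitochondrial translation factors gave higher values than the mitochondrial synthetases. Of 9 tested, 4 (44.4%) were higher and 1 (11.1%) was lower, against 29.8% and 8.30% of all genes. Their median log2 fold change was 0.81. For the mitochondrial synthetases the counts were 0 and 2 of 17 and the median was -0.06, a difference that was not tested. Mtif2, the initiation factor, was at 37.8 and 36.6 TPM with IgG and at 133.6 and 118.3 TPM with SAFB (1.73 ± 0.13, limma adjusted p = 0.00468). Mtrf1l, a release factor, and the elongation factors Gfm1 and Gfm2 were higher by 1.64 ± 0.39, 0.81 ± 0.20 and 0.55 ± 0.11. Gfm1 and Gfm2 were not called under any of the 3 scalings, and Mtrf1l was not called under median centring. Tufm, the mitochondrial tRNA carrier, was lower, at 97.9 and 106.4 TPM with IgG and 47.7 and 70.5 TPM with SAFB (-0.81 ± 0.22, limma adjusted p = 0.0457).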

How the data were processed

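The authors deposited 1 table of TPM values for 4 libraries (2 IgG RIP, 2 SAFB RIP), and TPM is the only unit used. Per the labels' protocols, nuclear RNA from each precipitate was digested with DNase, and stranded libraries were made after ribosomal depletion. Tools in the submitters' processing notes are StringTie, HTSeq, HISAT2 and DESeq2, with the build mm10; which tool gave the TPM, and whether counting used strand, is not given in the sources used here. Entries sharing an identifier were summed. The filter asked for 1 TPM or more in 2 or more libraries, and genes were tested with limma 3.58.1 (R 4.3.3) on log2(TPM + 1), with a variance trend and Benjamini-Hochberg adjustment at 0.05. Fold changes are on the log2(TPM + 1) scale, which understates changes of low genes. The fit had 2 residual degrees of freedom and 2.50 from the prior. An exact permutation test of 2 against 2 cannot go below 0.333 and was not used. The procedure was tested on simulated data with the same spread in both groups and with added changes upward only. That test did not cover unequal spread between the groups or genes made lower.

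Members and gene lists were chosen with earlier results of these data known, and the lists say nothing independent of them. Members may be named, and 1 gene is counted but not reported singly here; values in every library are given for those that passed, for several others without overlap, and for pairs, and in each list genes that passed and up to 4 with the highest TPM were eligible. Deviations of same-numbered libraries from their group means correlated at -0.0247, so equal numbers were not taken as pairs. Sequences, exon overlaps and positions come from GENCODE M21 (GRCm38, called mm10), where 52042 of 52189 identifiers were found. Alternatives covered the pseudocount, filter, scaling, variance prior, replicate block, each library left out and the GC trend.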

Additional observations from a re-analysis of the deposited data

How the results depend on the processing

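Among all genes, 4964 were higher and 1382 lower. Median centring gave 2736 and 2935, quantile normalization 2758 and 2986, and protein-coding genes alone 2600 and 2322, so the split between directions depends on scaling. Removing the GC trend, in the 11934 genes with a coding transcript, gave 697 lower, where the fit of all genes calls 1213 of them lower. With 1 library left out (the lone library assumed to vary like the other group), higher genes numbered 2034 to 7781 and lower genes 571 to 2631, fewest without a SAFB library. The median log2 fold change of cytosolic genes was -0.033 under median centring, 0.131 with protein-coding genes alone, 0.117 with quantile normalization and 0.286 to 0.556 with a library left out. The mitochondrial median was -0.523 under median centring and -0.081 to 0.047 with a library left out. Over all genes tested, the IgG libraries differed from each other by a median of 0.370 log2 units and the SAFB libraries by 0.166.

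Cytosolic genes called higher numbered 5 under median centring and 7 to 11 with a library left out. Those called lower numbered 1 with the GC trend removed, 1 without the variance trend and 2 to 5 with a library left out. Mitochondrial genes called higher numbered 2 with the GC trend removed, 1 with a filter of 5 TPM, 1 without the variance trend, 1 with the replicate block and 0 to 3 with a library left out. Those called lower numbered 0 with the GC trend removed, 6 under median centring, 1 without the variance trend, 5 with protein-coding genes alone, 4 with quantile normalization and 1 to 6 with a library left out. With the replicate block, 4797 genes were higher and 1264 lower, Rars2 was gained and Farsa lost, and no other member changed its call. Among all genes, the lower share was 8.30% in the fit of all genes and 5.84% with the GC trend removed. It was 17.6% under median centring, 17.9% with quantile normalization and 19.2% with protein-coding genes alone. The higher share was 29.8%, 30.4%, 16.4%, 16.6% and 21.5% in the same order. The filter of 5 TPM gave 4310 higher and 1456 lower genes, and the fit without the variance trend 4371 and 946. No member count was tested against these backgrounds, and the cause of the shifts between settings was not tested.

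Signs turned in genes that did not pass, and in Farsa. Median centring gave Aars -0.37, Aimp2 -0.039, Ears2 -0.26, Fars2 -0.027, Farsb -0.20, Gars -0.29, Iars2 -0.31, Pars2 -0.19 and Wars2 -0.15. Protein-coding genes alone gave Aars -0.21, Ears2 -0.089, Farsb -0.038, Gars -0.13, Iars2 -0.15 and Pars2 -0.007. Quantile normalization gave Aars -0.23, Ears2 -0.26, Farsb -0.061, Gars -0.13, Iars2 -0.17, Pars2 -0.29 and Wars2 -0.23. Removing the GC trend gave Aars2 0.29, Farsa 0.001, Farsb -0.064, Iars2 -0.11, Kars 0.10, Lars2 0.02, Tars2 0.15 and Wars2 -0.001. With a library left out Iars ranged from -0.14 to 0.046. Without IgG replicate 1 Kars was 0.30 and Nars2 0.017, without IgG replicate 2 Lars2 was 0.082, and without SAFB replicate 1 Iars was 0.02, Kars 0.07 and Lars2 0.05.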

Other observations

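Further gene lists touch the tRNA supply that synthetases work on. Of 23 tested genes for tRNA maturation and export, 5 (21.7%) were higher and 1 (4.35%) was lower by limma. Both shares were under those of all genes, 29.8% and 8.30%, and the median log2 fold change was 0.27 against 0.46. Trmt10c, a subunit of the mitochondrial enzyme that cuts tRNA 5′ ends, was at 3.27 and 5.68 TPM with IgG and at 21.2 and 22.7 TPM with SAFB (2.10 ± 0.35, limma adjusted p = 0.0151). Pop4, a subunit of nuclear ribonuclease P, was at 35.0 and 28.7 TPM with IgG and at 71.4 and 76.0 TPM with SAFB (1.19 ± 0.16, limma adjusted p = 0.0101). Both stood clear of the IgG libraries, and both were called under each of the 3 scalings. Rpp38, Elac1 and Rtcb were also higher (2.49 ± 0.62, 1.39 ± 0.30 and 1.03 ± 0.21), and each was lost under median centring. Tsen34, a subunit of the tRNA splicing endonuclease, was lower (-0.96 ± 0.22, limma adjusted p = 0.0321).

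ATF4 is a transcription factor known to raise amino acid supply genes and several cytosolic synthetase genes during amino acid shortage. Of 18 genes in a list of its responses, 2 (11.1%) were higher and 6 (33.3%) were lower, with a median log2 fold change of -0.43. Among all genes tested, 29.8% were higher and 8.30% were lower. Atf4 itself was at 91.3 and 61.9 TPM with IgG and at 135.7 and 147.4 TPM with SAFB (0.90 ± 0.21, limma adjusted p = 0.0331), and Ddit3 was higher by 0.92 ± 0.20. Both calls were lost under each of the 3 scalings, and Ddit3 overlaps Mars on the opposite strand (1.99% of the exon bases of Mars). Slc7a5, an amino acid transporter, was at 19.1 and 20.8 TPM with IgG and at 5.73 and 6.38 TPM with SAFB (-1.57 ± 0.27, limma adjusted p = 0.0161). Psat1, Phgdh, Shmt2, Slc3a2 and Cebpb were the other lower genes, from -0.66 to -1.19. The list thus held lower values than the cytosolic synthetases, whose median was 0.43, a difference that was not tested.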
